A study of Rattus norvegicus with 6 samples.

Results

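Killer lectin-like receptors are the C-type lectin-like surface proteins with which natural killer (NK) cells read other cells. They were followed here as a list of 9 genes, Klrd1, Klrk1, Klrb1a, Klrb1b, Klrh1, Klri1, Klri2, Klrc1 and Klre1, out of 32883 genes in 6 single-cell libraries of rat pancreas. By symbol 8 of the 9 genes matched, and Klrb1b is not analysed here. The genes were chosen by the detection of their transcripts among the NK and T cells of these libraries, so their levels and shares of cells below, and the way these differ between HFHF-old rats and the rest, are a description with no test.

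In the rat these genes lie in the NK gene complex, a cluster of receptor genes for lectin-like proteins. Inhibitory members signal through motifs in their own tails, while activating members depend on adaptor proteins such as Tyrobp and Hcst. A single NK cell holds only some of these receptors, and the mixture differs from cell to cell and between strains, since the cluster varies in sequence and in gene content.

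The libraries came from male Wistar rats, an outbred stock, with 2 rats in each of 3 groups. Young rats had an age of 2 months and a normal diet, old rats stayed on the normal diet until 20 months, and HFHF-old rats received a high-fat high-fructose (HFHF) diet for 18 months until the age of 20 months. The labels name no other allele or agent, and they count the rats of a group as replicates. The digested pancreas was enriched for islets on a density gradient before 10x Genomics 3' sequencing, so the lymphocytes are those that came along with the islets. Inherited differences between single outbred rats and the differences between groups of 2 rats cannot be told apart. A series of 6 values gives the 2 young rats first, then the 2 old and last the 2 HFHF-old rats, each time with replicate 1 before 2.

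An NK cell was a cell with a UMI, that is a counted transcript molecule, of at least 3 of Ncr1, Nkg7, Prf1, Gzma and Gzmm and none of Cd3e. This gave 15207 NK cells of 75201 cells kept, namely 1903, 2286, 736, 1251, 1066 and 7965 per rat, with medians of 6045, 8368.5, 9028.5, 3731, 7670.5 and 8936 UMIs. HFHF-old replicate 2 thus held most of the NK cells, and they made up 67.98% of its cells against 7.63% to 22.2% in the other 5 libraries. T cells, with Cd3e and with Cd3d or Cd3g, numbered 305, 170, 753, 1775, 526 and 1415. The libraries held between 77387928 and 166875258 UMIs. Pairs of libraries shared between 20 and 64 barcodes, at most 0.623% of the smaller library. Levels are given as CPM, the UMIs of a gene per 1000000 UMIs of all cells of the class in a rat. Shares of cells are given after every cell had been thinned to 2000 UMIs, because deeper cells show more genes. Cells with fewer UMIs were left out of the shares, which left 1760, 2231, 718, 1122, 1053 and 7881 NK cells.

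Young replicate 2 stood apart from the other libraries. Among its NK cells 73.2% also held at least 3 of 6 macrophage markers, and 5 islet hormone genes together reached 204739 CPM. In HFHF-old replicate 1 the share with macrophage markers was 53.0%, while it was 0.08% in HFHF-old replicate 2. A second, narrower set was therefore formed after the data had been seen, the marker-rich NK cells, in which the 5 NK markers made up at least 2000 per 1000000 UMIs of the cell. It kept 1724, 655, 672, 1188, 883 and 7529 cells, which is 28.7% of the NK cells of young replicate 2 and between 82.8% and 94.96% in the other libraries. Within it the share with macrophage markers fell to 19.4% in young replicate 2 and was 45.0% in HFHF-old replicate 1. Their part in the results was not tested. The cut selects on genes that went with some members in thinned NK cells. The mean correlation over libraries was 0.26 for Klri2 with Gzma and 0.22 for Klrd1 with Prf1. What this selection does to the members was not tested either. Each member is given in both sets.

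Of the 8 measured members 7 had an entry among the RefSeq promoters of the build GRCr8, and Klrd1 had none. The order of genes in the reference is Klre1, Klrd1, Klrk1, Klrc3, Klrc2, Klrc1, Klri1, Klri2 and Klrh1 along chromosome 4. Promoters of 4 members are printed, because Klri1 and Klri2 are the paired inhibitory and activating receptors that share Klre1 as partner, and Klrh1 is the member least often held. Each runs from 250 bases before the start of the gene to 50 bases after it, 5′ to 3′ on the strand of the gene. Capitals mark matches on either strand to the letters TGTGGT (Runx), GGTGTG (T-box) or AGGAAG (ETS), which do not overlap here.
Klri1 promoter: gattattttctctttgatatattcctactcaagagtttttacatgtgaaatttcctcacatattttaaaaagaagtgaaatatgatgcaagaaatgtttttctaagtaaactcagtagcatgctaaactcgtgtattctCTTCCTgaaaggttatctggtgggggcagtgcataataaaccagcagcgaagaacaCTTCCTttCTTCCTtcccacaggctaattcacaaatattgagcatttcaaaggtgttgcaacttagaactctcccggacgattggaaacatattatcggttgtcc
Klri2 promoter: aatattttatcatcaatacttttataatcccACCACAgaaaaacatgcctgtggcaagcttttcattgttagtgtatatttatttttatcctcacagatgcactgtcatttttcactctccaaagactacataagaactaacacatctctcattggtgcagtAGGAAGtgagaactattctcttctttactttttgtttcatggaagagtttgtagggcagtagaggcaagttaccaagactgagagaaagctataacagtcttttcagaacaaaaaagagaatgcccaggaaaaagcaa
Klrh1 promoter: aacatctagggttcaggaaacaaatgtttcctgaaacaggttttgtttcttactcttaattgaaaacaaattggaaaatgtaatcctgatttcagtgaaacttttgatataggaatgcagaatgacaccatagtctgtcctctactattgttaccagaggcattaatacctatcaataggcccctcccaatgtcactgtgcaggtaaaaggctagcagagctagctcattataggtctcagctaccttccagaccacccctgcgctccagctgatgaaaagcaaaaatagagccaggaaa
Klre1 promoter: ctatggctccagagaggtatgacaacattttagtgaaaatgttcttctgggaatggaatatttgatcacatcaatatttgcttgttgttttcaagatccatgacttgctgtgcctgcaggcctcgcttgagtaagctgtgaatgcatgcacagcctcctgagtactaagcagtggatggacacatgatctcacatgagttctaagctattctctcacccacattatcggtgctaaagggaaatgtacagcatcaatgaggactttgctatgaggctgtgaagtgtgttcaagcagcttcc

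These windows are chr4:164904819-164905118 for Klri1, chr4:164947455-164947754 for Klri2 and chr4:164987938-164988237 for Klrh1, all on the minus strand, and chr4:164719354-164719653 on the plus strand for Klre1. Klri1 held 3 matches to the ETS letters, all as CTTCCT. Klri2 held 1 match to the Runx letters, as ACCACA, and 1 to the ETS letters, as AGGAAG. No match to the 3 motifs lay in the windows of Klrh1 and Klre1. Of 33469 promoters of the same length 34.5% held the ETS letters, 17.3% the Runx letters and 17.9% the T-box letters, so such matches are common. In a global alignment with gaps the windows of Klri1 and Klri2 were identical at 46.9% of alignment columns, within the 45.9% to 54.7% seen over the 21 pairs of members.

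Klrb1a, the activating receptor NKR-P1A, had the highest CPM of the 8 genes in NK cells of 6 of 6 rats. Its levels were 1145, 405, 1463, 1425, 1217 and 1616 CPM, and 86.3, 42.1, 87.7, 91.3, 85.7 and 92.1% of the thinned NK cells held it. Young replicate 2 was low in both measures. In marker-rich cells the levels were 1256, 1287, 1584, 1666, 1560 and 1640.1 CPM, and both young rats then lay below all 4 aged rats, whose groups overlapped. The share in marker-rich cells lay between 87.4% and 94.1%.

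Klrd1, or CD94, is the partner chain of the NKG2 receptors. Its levels in NK cells were 539, 295, 783, 965, 453 and 702 CPM, with 64.0, 37.0, 79.8, 83.8, 62.5 and 73.1% of thinned cells holding it. The values of the HFHF-old rats were under those of the old rats in both measures. In marker-rich cells the levels were 611, 859, 852, 1131, 596 and 712 CPM, and the HFHF-old rats again lay below the old rats. Young replicate 2 now lay above old replicate 1 and HFHF-old replicate 2, and both young rats lay within the range of the other 4.

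Klrc1 encodes NKG2A, the inhibitory partner of CD94. Levels in NK cells were 97.5, 20.5, 102, 88.6, 67.3 and 89.7 CPM, and in marker-rich cells 109.6, 78.7, 105, 103, 87.5 and 90.1 CPM. HFHF-old rats lay below old rats in marker-rich cells, at 88.8 ± 1.80 CPM against 104 ± 1.46 CPM (SD, n = 2 each). The thinned share was 17.8, 4.35, 16.4, 17.7, 15.1 and 15.6% of NK cells and between 12.7% and 19.8% of marker-rich cells, so most NK cells did not show a Klrc1 transcript at this depth.

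Klrk1, or NKG2D, is an activating receptor for stress-induced ligands and signals through Hcst. It stood at 354, 71.5, 227, 189, 194 and 238 CPM in NK cells, and young replicate 1 was the highest rat. Marker-rich cells gave 385, 239, 243, 219, 251 and 239.5 CPM, which sets young replicate 1 apart from 5 rats that lay close together. The thinned share of marker-rich cells was 51.8% in young replicate 1 and between 34.1% and 40.3% in the other 5 rats. Of all thinned NK cells 49.4, 13.3, 37.6, 33.96, 31.9 and 34.8% held Klrk1, so young replicate 2 was the lowest there.

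**Figure D1:**
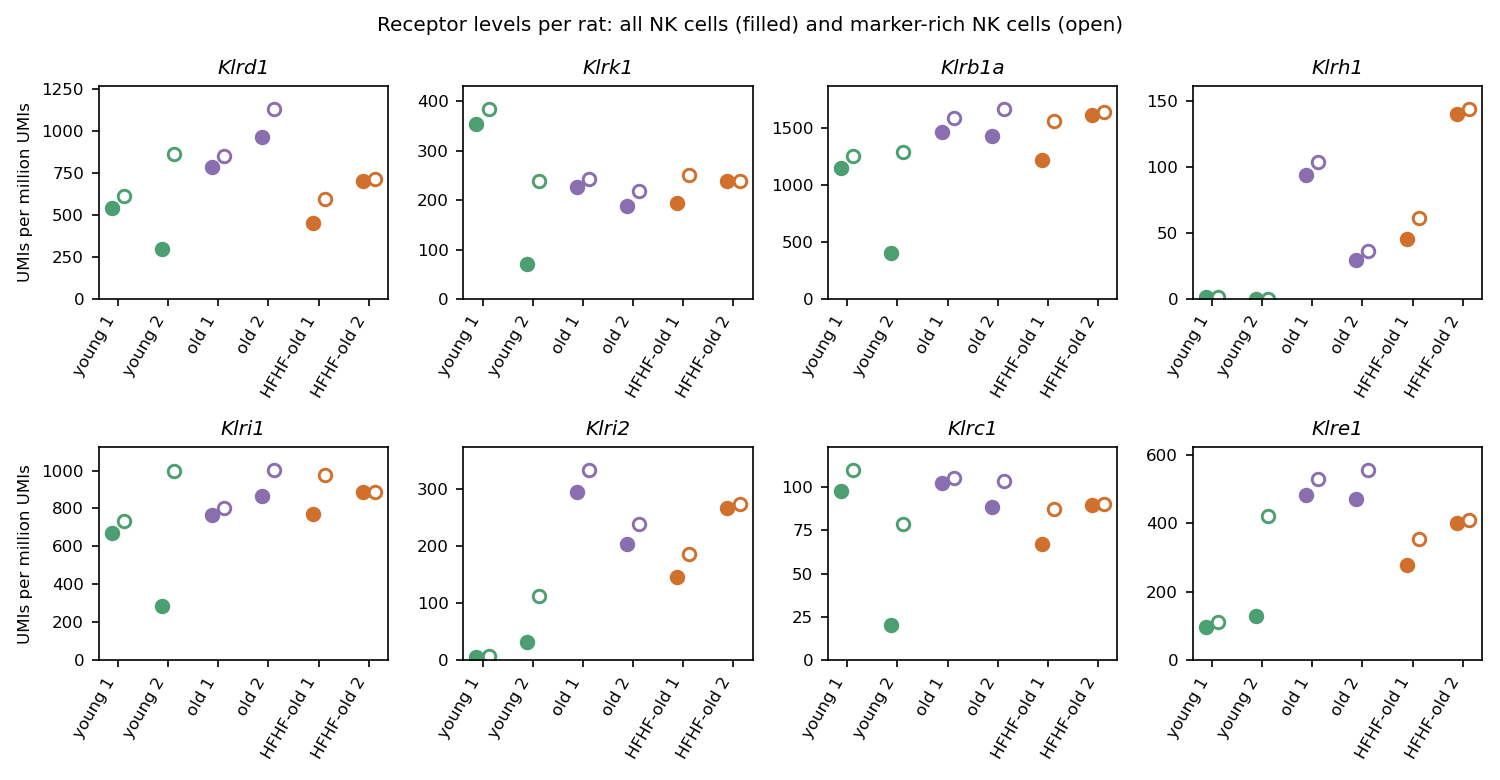
Level of each of the 8 measured members in CPM (linear axis from 0, with its own scale for each gene) per rat. Each point is 1 rat, coloured by group, filled for all NK cells and open for marker-rich NK cells. Klrh1 lies near or at 0 in both young rats and between 29.8 and 140 CPM in the NK cells of the 4 aged rats, while Klrb1a is the highest gene in NK cells of every rat.

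Klre1 is the chain that pairs with either Klri1 or Klri2 at the cell surface. Its levels in NK cells were 98.1, 129, 484, 471, 279 and 402 CPM, with both young rats below all 4 aged rats. In marker-rich cells they were 112, 422, 529, 555, 354 and 409 CPM, where young replicate 2 lay between the HFHF-old and the old rats. The HFHF-old rats lay below the old rats in both sets. Of thinned marker-rich cells 20.5, 58.3, 65.2, 66.1, 52.5 and 53.1% held Klre1, so young replicate 1 alone was low.

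Klri1, the inhibitory partner of Klre1, stood at 672, 288, 765, 865, 769 and 886 CPM in NK cells. In marker-rich cells the levels were 735, 999.8, 805, 1001, 975 and 887 CPM, and the groups overlapped. The share of thinned marker-rich cells with Klri1 lay between 61.98% and 77.0% in the 6 rats, with old replicates 1 and 2 at the 2 ends.

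Klri2, the activating partner of Klre1, was lower and more uneven, at 6.32, 32.9, 295, 204, 146 and 266 CPM in NK cells. Marker-rich cells gave 7.10, 113, 333, 238, 187 and 274 CPM, and both young rats lay below all 4 aged rats in either set. The thinned share of marker-rich cells was 0.695, 13.2, 29.6, 21.7, 17.4 and 24.5%. The young rats differed from each other by more than the lowest aged rat differed from the highest, as a ratio.

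Klrh1, an inhibitory receptor of a subset of rat NK cells, showed the widest range. Levels in NK cells were 1.396, 0, 94.1, 29.8, 45.5 and 140 CPM. Young replicate 1 had 19 UMIs in 8 of 1903 NK cells, a share of 0.420% (95% Clopper-Pearson interval 0.182 to 0.827%, counting error only), and young replicate 2 had 0 of 2286 cells, which allows up to 0.131% of these cells to hold a UMI, and 0 of its 655 marker-rich cells, which allows up to 0.458%. After thinning 6.82, 2.76, 4.46 and 9.86% of the NK cells of the 4 aged rats held Klrh1, and 7.18, 2.82, 5.29 and 9.82% of their marker-rich cells. Old and HFHF-old rats overlapped, and the rats within each of these groups lay further apart than the group means.

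Shares were also taken in fibroblasts and macrophages. Free RNA, barcodes with mixed cells and transcripts of these cells themselves were not told apart. In fibroblasts, thinned in the same way and with medians of 1882 to 13008.5 UMIs, the share was at most 0.939% for Klrd1, 4.69% for Klrb1a, 0.782% for Klri1 and 0.486% for Klre1 in 5 of the 6 libraries. In young replicate 2 it was 14.8% for Klrd1, 14.4% for Klrb1a, 6.28% for Klri1, 4.15% for Klre1, 2.43% for Klrk1 and 0.709% for Klri2. Klrh1 was held by 0 to 0.195% of fibroblasts. In young replicate 1 it was held by 0 of 3572 thinned fibroblasts, beside 0.227% of its thinned NK cells. Among thinned macrophages Klrk1 was held by 2.47 to 17.6% and Klri1 by 1.75 to 9.46%. The highest shares came from HFHF-old replicate 2, with only 74 such cells. Per 100 UMIs of Klrd1, macrophages had 656, 40.3, 312.5, 422, 496 and 415 UMIs of Klrk1. NK cells had 65.7, 24.2, 28.9, 19.6, 42.7 and 33.9. These macrophage shares are thus not read as a background for the NK cells. Without thinning the NK shares were higher, for example 86.8, 72.8, 96.3, 92.6, 93.2 and 97.4% for Klrd1 and 0.420, 0, 9.10, 3.12, 7.32 and 12.3% for Klrh1.

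**Figure D2:**
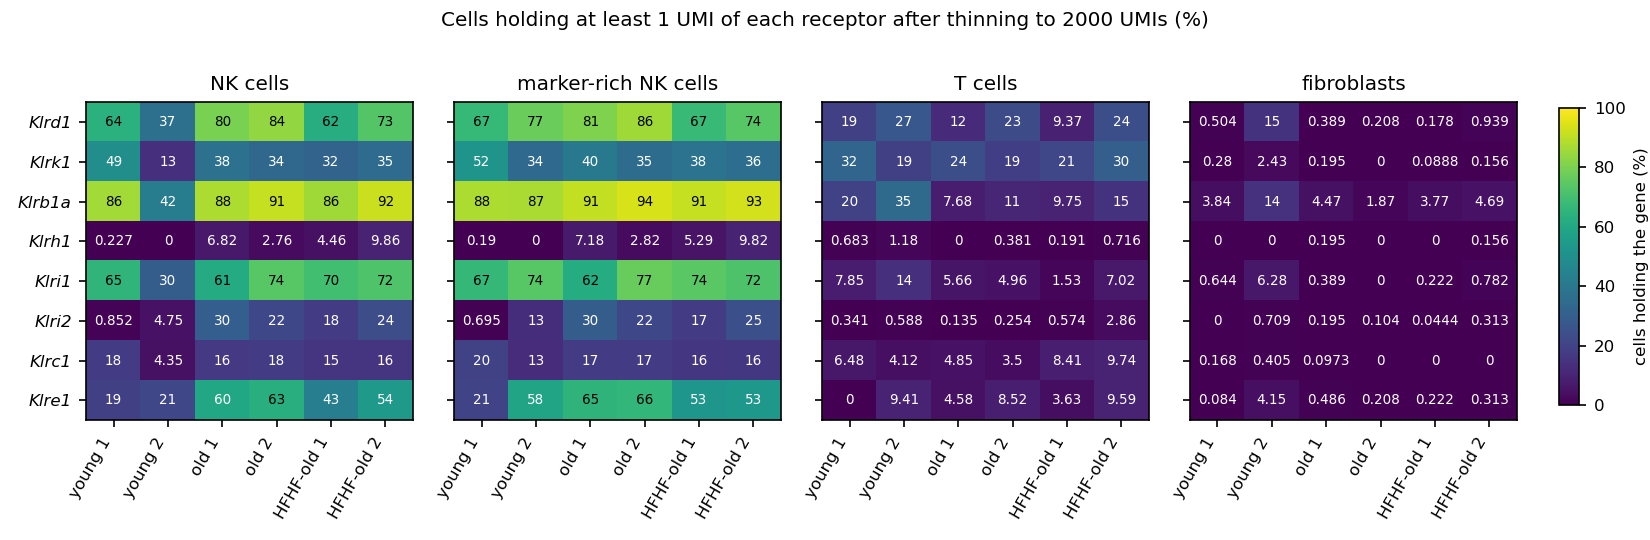
Share of cells (%) holding at least 1 UMI of each member after thinning to 2000 UMIs per cell, as a grid of members (rows) by rats (columns) for NK cells, marker-rich NK cells, T cells and fibroblasts, with the share printed and coloured in each field. Young replicate 2 is low for most members in all NK cells (42.1% for Klrb1a) and closer to the other rats in marker-rich cells (87.4% for Klrb1a, against 87.9% to 94.1%).

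Whether the NK receptors of the HFHF-old rats differed from the rest was described next. Of the 8 members 0 had CPM values in HFHF-old rats that lay above, and 0 that lay below, those of all 4 other rats, in NK cells and in marker-rich cells. Over all genes tested 15.2% lay above and 7.56% below in NK cells, and 18.7% and 11.9% in marker-rich cells. The share of thinned NK cells was 12.0 percentage points higher in HFHF-old rats for Klrb1a and 13.5 points higher for Klri1, as a difference of group means from the 4 other rats, but only 2.22 and 3.42 points higher in marker-rich cells, thinned in a draw of their own. For Klrh1 the difference was 4.71 points in NK cells and 5.02 points in marker-rich cells, against a range of 0 to 6.82% of NK cells over the 4 other rats. For Klrd1 it turned from 1.64 points in NK cells to -7.85 points in marker-rich cells, where the HFHF-old mean was 71.3% and that of the 4 other rats 79.1 ± 7.91% (SD, n = 4).

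Against old rats alone, 2 of 8 members, Klrd1 and Klre1, were lower in both HFHF-old rats than in both old rats, where 15.6% of all genes were, and 0 of 8 were higher, where 25.2% of all genes were. In marker-rich cells Klrc1 joined them, which made 3 of 8 lower against 18.6% of all genes, and 0 of 8 were higher, against 28.9%. The log2 fold change was -0.70 ± 0.45 (SE) for Klrd1, -0.58 ± 0.50 for Klre1 and -0.37 ± 0.52 for Klrc1 in NK cells. In marker-rich cells it was -0.72 ± 0.35 for Klrd1, -0.62 ± 0.61 for Klre1 and -0.34 ± 0.20 for Klrc1. Klrh1 had a log2 fold change of 0.58 ± 1.10, and the other 4 members lay between -0.34 and -0.04. Without HFHF-old replicate 2 the value of Klrh1 turned to -0.62. Genes of the response to cell dissociation, 5 measured of 6 listed, moved with this contrast, with a summed level of 2613, 1207, 2806, 2299, 4812 and 2935 CPM in NK cells and of 2318, 1020.2, 2622, 2253, 3860.3 and 2849.5 CPM in marker-rich cells. Both HFHF-old rats lay above the 4 others in both sets. Of single genes 15.2% did so in NK cells and 18.7% in marker-rich cells. The share over sums of 5 genes was not taken. NK cells with at least 3 of these genes made up 83.67% in HFHF-old replicate 2 and 83.70% in old replicate 1. By that share the HFHF-old rats did not both lie above the others. The part of these genes in the results was not tested.

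Old and young rats were compared next. In NK cells 6 of 8 members, all but Klrk1 and Klrc1, were higher in both old rats than in both young rats, against 12.1% of all genes, and in marker-rich cells 4 of 8, Klrb1a, Klre1, Klri2 and Klrh1, against 10.3% of all genes. The log2 fold change of old against young NK cells was 6.58 ± 1.45 for Klrh1, 3.19 ± 1.00 for Klri2 and 1.79 ± 0.51 for Klre1. In marker-rich cells it was 6.73 ± 1.01 for Klrh1, 2.26 ± 1.124 for Klri2 and 1.06 ± 0.62 for Klre1, while the other 5 members lay between -0.35 and 0.51. The value of Klrh1 rests on 19 UMIs in the young rats, all of them from young replicate 1, so no fold can be given without that rat. Without young replicate 1 the marker-rich values fell to 1.33 for Klri2 and 0.37 for Klre1. Islet hormone genes stood at 12197, 204739, 11082 and 59290 CPM in young and old NK cells. In marker-rich cells they stood at 2591, 14437, 2715 and 6150 CPM. At least 3 macrophage markers were held by 17.2, 73.2, 17.7 and 7.03% of the NK cells. Il2rb, the highest of the other NK receptors listed, stood at 799, 210, 728 and 630 CPM, so young replicate 2 was low there too. Fibroblast markers were lower in both old rats, at 1503, 1119, 400 and 298 CPM in young and old NK cells. In marker-rich cells they summed to 976, 447, 264 and 220 CPM. Red cell genes stood at 144, 169, 8.89 and 16.3 CPM in NK cells, and at 169, 6.80, 6.58 and 11.8 CPM in marker-rich cells, where the groups overlapped. The part of these genes in the results was not tested.

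Across all genes edgeR called 0 of the 8 members in HFHF-old against old NK cells (0% of 13852 genes called), 0 in old against young (0.00722% called) and 0 in HFHF-old against the 4 other rats (0% called). At an unadjusted p under 0.05 edgeR had 287, 342 and 703 genes in these 3 contrasts, and DESeq2 called 25, 34 and 77 genes, 0 of them members. Without the filter on low counts the log2 fold changes of Klrh1 in the last 2 contrasts were 6.57 and 3.94, and it was then among the genes called. The contrast with the 4 other rats weighs the old and the young group equally on the log scale. Both values thus rest on young rats with 19 and 0 UMIs of Klrh1. The members were chosen on values of these same cells, so nothing is read from these counts. The 1 gene called, AC127784.2, is no member and was singled out by its value. It stood at 0.0734, 0.0452, 37.4, 23.4, 18.2 and 23.4 CPM, with a log2 fold change of 8.71 ± 0.54 for old against young (edgeR adjusted p = 0.0407). This contrast had 0 calls with the replicate block, with the looser, stricter or exclusive gate, without cells passing another gate, in thinned cells, in marker-rich cells and without any 1 of the 4 young and old rats.

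**Figure D3:**
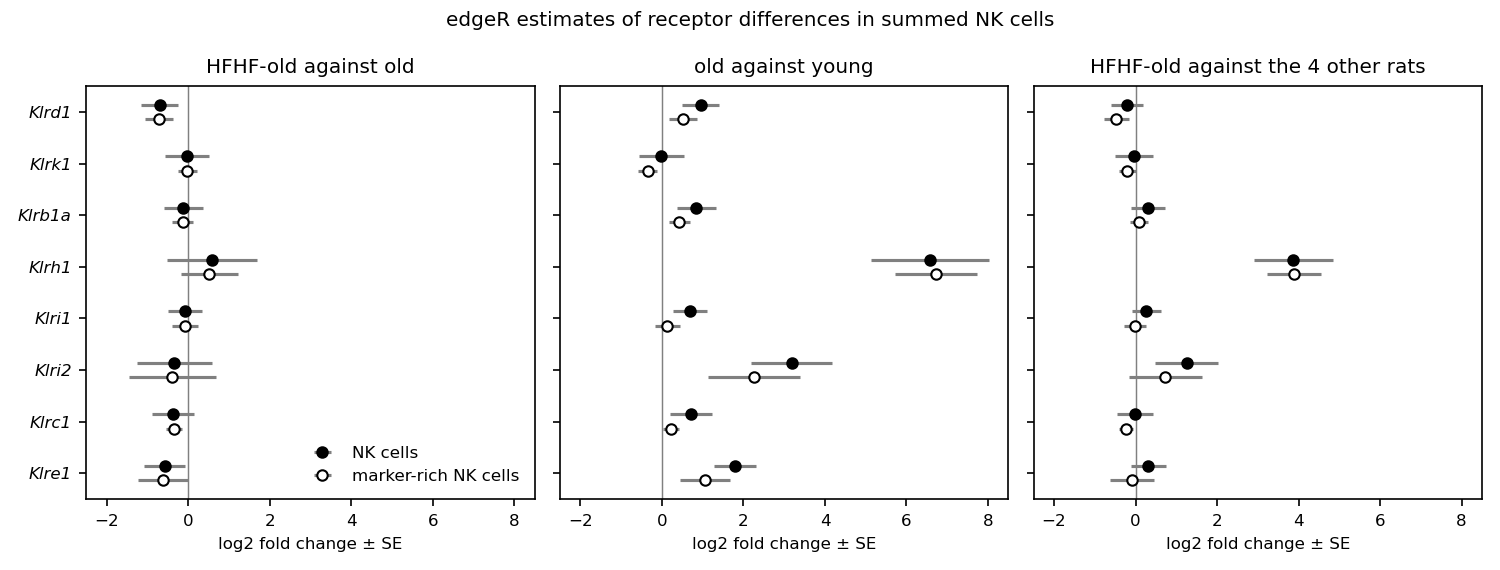
Log2 fold change of each member with its standard error (bars), from edgeR sums per rat, for 3 contrasts in all NK cells and in marker-rich NK cells. Klrh1 has the largest values, 6.58 for old against young NK cells and 3.87 for HFHF-old against the 4 other rats. The contrast with the 4 other rats weighs the old and the young group equally on the log scale. Both values thus rest on young rats with 19 and 0 UMIs of Klrh1. Its HFHF-old against old value of 0.58 is smaller than its standard error of 1.10.

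Relative levels within the receptor set were also compared, as UMIs of a member per 100 UMIs of Klrd1, a scale chosen after the data had been seen. Klrb1a stood at 212, 137, 187, 148, 269 and 230 on this scale, and Klri1 at 125, 97.5, 97.7, 89.6, 170 and 126. Both HFHF-old rats lay above the 4 others for these 2 of the 7 members, and over all genes 11.1% did so. The denominator Klrd1 was itself lower in both HFHF-old rats than in both old rats, which raises the ratios against the old rats, and in CPM neither gene separated the HFHF-old rats from the 4 others. In marker-rich cells the same was seen for Klrb1a and Klri1, where 19.2% of all genes did so. Klri2 stood at 1.17, 11.1, 37.7, 21.1, 32.1 and 37.9 and overlapped between HFHF-old and old rats.

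Cells held several receptors at a time. A thinned NK cell held 3.03, 1.52, 3.79, 3.88, 3.30 and 3.75 of the 8 members on average, and a marker-rich cell 3.15, 3.57, 3.93, 4.00, 3.62 and 3.79. Fibroblasts held 0.0239 to 0.431 members. Cells with 5 or more members made up 11.6, 22.0, 31.6, 34.5, 21.8 and 26.5% of marker-rich cells, so young replicate 1 had the fewest, both old rats had the most, and young replicate 2 and HFHF-old replicate 1 lay close together.

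Co-detection was described in thinned cells by the odds of holding one member given another, over 28 pairs. Of these, 11 pairs had the same sign in each usable library in marker-rich cells, 8 positive and 3 negative, and 8 pairs did so in all NK cells, 7 positive and 1 negative. The share over other pairs of genes was not taken, so nothing is read from these counts. In all NK cells of young replicate 2 every usable pair was positive, at log2 odds ratios of 0.92 to 3.10. The part of mixed cells and free RNA in these signs was not tested. Among the pairs of 1 sign, Klrb1a and Klri1 had the highest median in marker-rich cells, with Klri1 in 67.3, 76.3, 62.9, 77.9, 75.5 and 72.8% of marker-rich cells with Klrb1a against 63.0, 56.6, 52.5, 61.9, 61.3 and 62.6% of those without. The median log2 odds ratio was 0.82, and 1.32 in all NK cells. Klrb1a with Klrc1 (0.50) and Klrd1 with Klre1 (0.20) were also positive in 6 of 6 libraries of both sets.

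The CD94 partners went together less clearly. Klrc1 was held by 20.8, 12.4, 19.1, 17.7, 15.6 and 16.6% of marker-rich cells with Klrd1 and by 17.9, 13.9, 10.3, 15.2, 16.1 and 15.0% of those without, a positive sign in 4 of 6 libraries. Klre1 and its partners gave a similar picture. Klri1 and Klre1 were positive in 5 of 6 libraries, with a median log2 odds ratio of 0.19. Klre1 was held by 55.0, 63.9, 68.4, 58.3 and 53.2% of cells with Klri2 in the 5 libraries from young replicate 2 onwards, and by 58.8, 65.7, 65.5, 51.3 and 53.1% of those without Klri2, so its sign was positive in 3 of 5 libraries.

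Klri1 and Klri2, the inhibitory and the activating member of the pair, tended to be held by different cells in the aged rats. Klri2 was held by 17.2, 19.4, 12.7 and 19.6% of marker-rich cells with Klri1 in the 4 aged rats against 49.8, 29.4, 30.8 and 37.2% of cells without Klri1. In young replicate 2 the shares were 13.7% and 12.0%, so the sign turned, and young replicate 1 had too few Klri2 cells. The median log2 odds ratio was -1.29 in both sets. Old replicate 1 had the strongest split, at -2.24. How the counting treated reads that fit both of these similar genes was not examined. The same holds for reads shared by Klrc1, Klrc2 and Klrc3 or by the Ly49 genes. The values of such members are uncertain to that extent.

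Klri2 was also held less often with Klrc1 in 4 of 5 libraries, with a median log2 odds ratio of -0.85. Klrh1 was negative with Klri1 in 4 of 4 libraries (-0.58) and with Klre1 in 4 of 4 (-0.41). With Klri2 it was positive in 3 of 4 libraries, where 36.7, 30.4 and 33.7% of Klrh1 cells held Klri2 in old replicate 2 and HFHF-old replicates 1 and 2 against 21.3, 16.6 and 23.5% of the other cells. In old replicate 1 the order was the reverse, 12.8% against 30.9%. The same signs were seen in all NK cells for these 4 pairs, except that the pair of Klrh1 and Klre1 was not of 1 sign there.

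**Figure D4:**
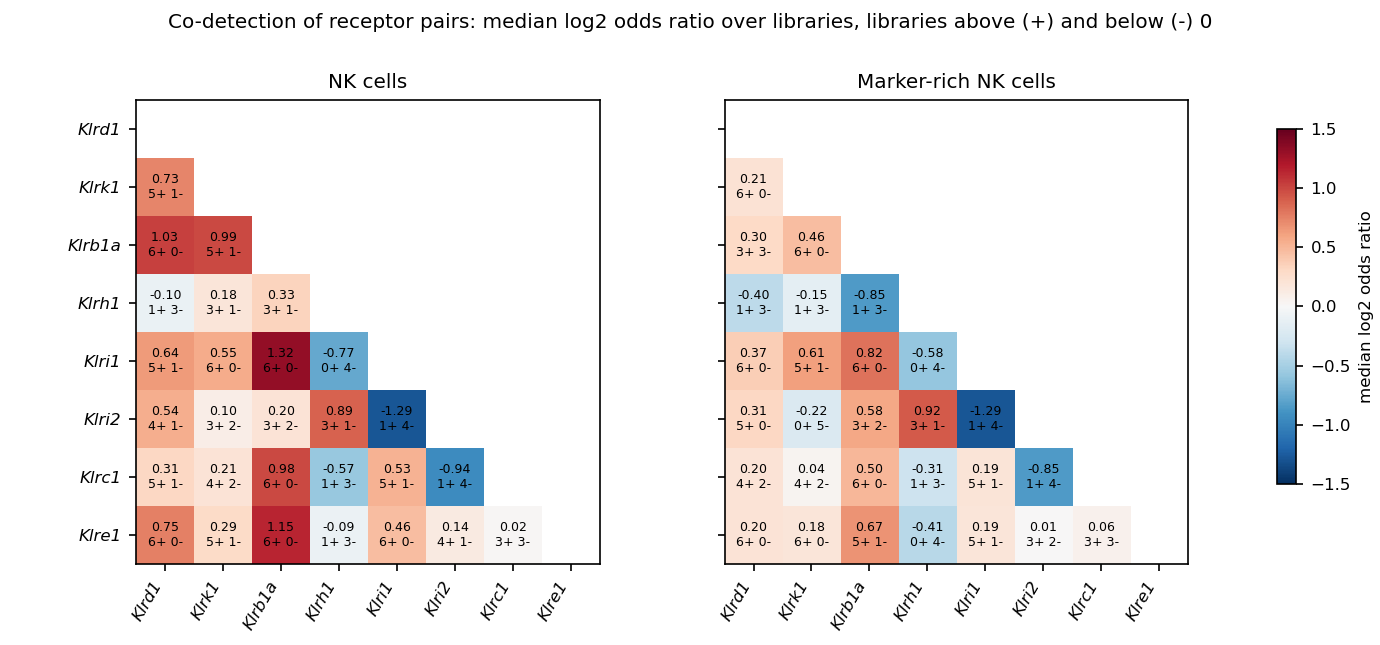
Median over libraries of the log2 odds ratio of co-detection for each pair of members in thinned cells, as a grid for all NK cells and marker-rich NK cells, with the number of libraries above (+) and below (-) 0 under each median. Values above 0 mean that a cell with one gene held the other more often than a cell without it. Klri1 with Klri2 lies at a median of -1.29 and Klrb1a with Klri1 at 0.82 in marker-rich cells.

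The cells that held Klri2 or Klrh1 differed from the other NK cells of the same rat in further genes that the gate had not used. Together such cells made up 1.08, 4.75, 35.5, 23.5, 20.9 and 30.3% of thinned NK cells. Holders of Klri2 among marker-rich cells numbered 80, 194, 231, 151 and 1825 in the 5 libraries with enough of them. Zeb2, a transcription factor of mature NK cells, was held by 47.5, 54.1, 21.6, 41.7 and 34.4% of them against 18.1, 15.0, 15.1, 17.7 and 16.8% of the other cells. Gzmb, a granzyme, was held by 55.0, 57.2, 40.3, 39.7 and 33.3% against 26.1, 34.7, 29.6, 20.6 and 26.2%. Both genes were thus more frequent in 5 of 5 libraries, as were S1pr5, a receptor for exit from tissue (1.61 to 9.01 percentage points), Klrg1, an inhibitory receptor of mature cells (6.38 to 17.3 points), and Ly49s6 (3.01 to 41.9 points). Gzmk (6.61 to 22.3 points) and Cx3cr1 (0.629 to 2.605 points) were so too. Other maturation and residency genes compared were mixed. Itga1 was higher in 4 of 5 libraries (-2.33 to 8.56 points), Il7r in 2 of 5, and Cd27 and Cxcr6 in 1 of 5.

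Skap1, an adaptor of integrin signalling, was held by fewer Klri2 cells in 5 of 5 libraries, 41.2, 39.2, 58.0, 60.9 and 62.8% against 63.0, 82.0, 67.7, 82.6 and 77.5%. Rora, a nuclear receptor, was lower by 4.50 to 15.7 points in 5 of 5.

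Klrh1 cells numbered 47, 30, 46 and 731 in the 4 aged rats. Their make-up was in part like that of the Klri2 cells and in part its reverse. Zeb2 was held by 10.6, 3.33, 13.0 and 7.11% of them against 27.8, 16.9, 22.3 and 22.6% of other cells, the reverse of the Klri2 cells. Ly49si1, a member of the Ly49 family, was held by 59.6, 66.7, 71.7 and 77.0% against 23.8, 24.6, 25.2 and 24.5%. It was also higher among Klri2 cells, by 2.26 to 29.9 points in 5 of 5 libraries. Ly49s6 and Gzmk, higher among Klri2 cells, were higher among Klrh1 cells too. The differences were 10.3 to 59.5 points for Ly49s6 and 4.10 to 23.3 points for Gzmk, in 4 of 4 libraries. Tnni3k was higher by 25.3 to 35.3 points in 4 of 4 libraries. Skap1 was higher by 4.56 to 26.2 points in 4 of 4, the reverse of the Klri2 cells. Rora was lower by 7.93 to 27.8 points in 4 of 4, as it was among Klri2 cells. S1pr5 (-2.91 to -1.79 points) and Cxcr6 (-2.61 to -0.85 points) were lower in 4 of 4, and Cx3cr1 in 3 of 4. Gzmb and Klrg1 were each higher in 2 of 4 and lower in 2. The share of all genes with 1 sign in every library was not taken, here or for the Klri2 cells. The genes compared here include those found most alike below, so these signs describe the same cells once more and are no separate support.

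**Figure D5:**
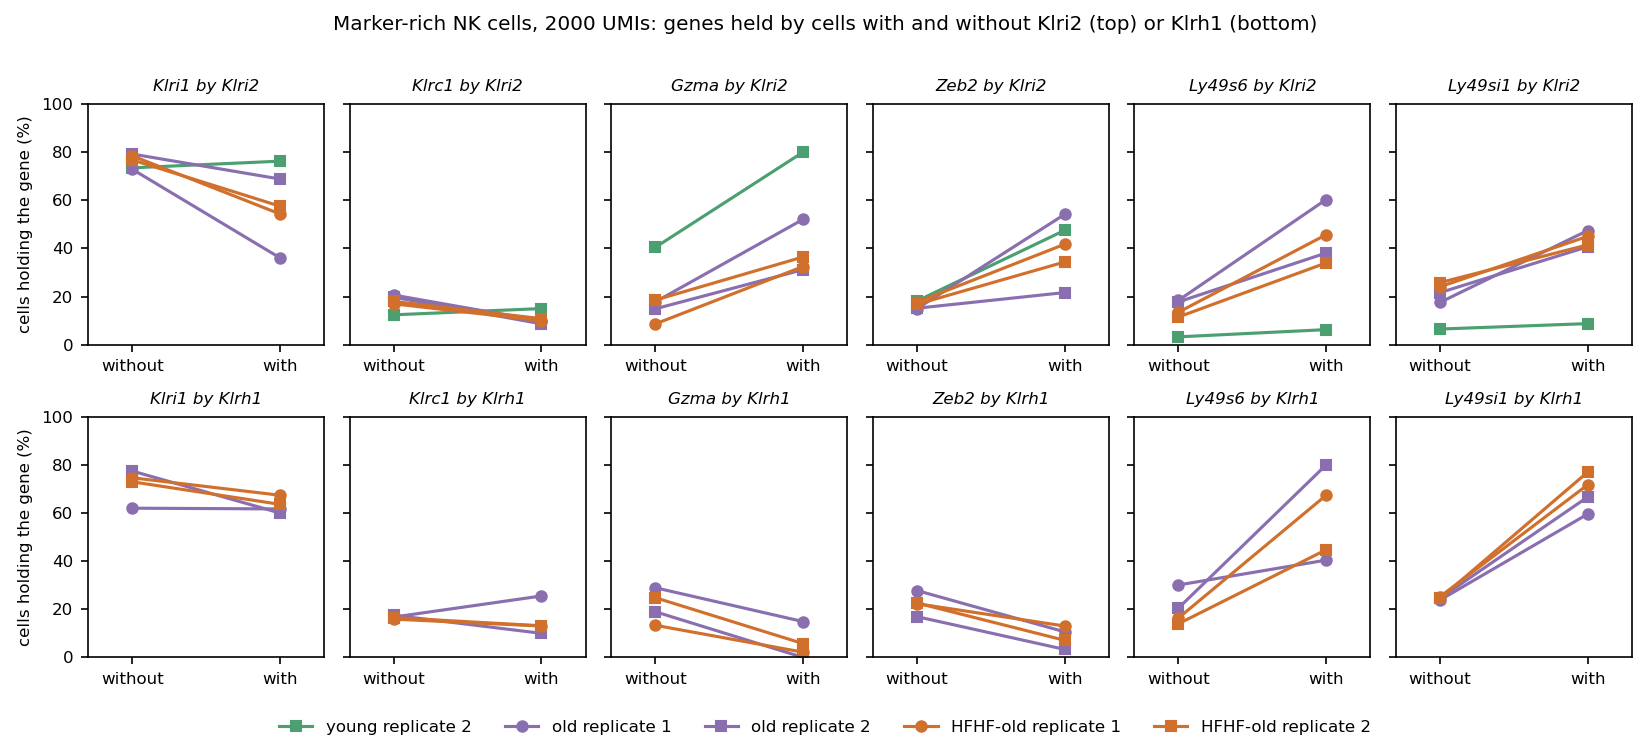
Share of marker-rich NK cells (%) with a UMI of each gene among cells that hold Klri2 or Klrh1 and among the other cells of the same library, after thinning. Points joined by a line belong to 1 library. Zeb2 is higher among Klri2 cells in 5 of 5 libraries and lower among Klrh1 cells in 4 of 4.

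The genes most like a member were those with the highest mean correlation over cells, taken within each library on log values among 5123 genes or 5124 for Klrh1. All correlations were weak, in sparse counts and over cells thinned to the same depth, and they are given as a description. In marker-rich cells Klrh1 was most like Ly49si1 (mean r = 0.24 over 4 libraries), Ly49s6 (0.18) and Tnni3k (0.17). Klri2 was most like Gzma (0.27 over 5 libraries), a gene of the gate, then Zeb2 (0.24) and Ly49s6 (0.23). Klri1 was most like Arhgap15 (0.22 over 6 libraries), Skap1 (0.21) and Rora (0.19), and Klrc1 like Rora (0.12) and Skap1 (0.11). Klrd1 (0.16) and Klre1 (0.13) were both most like Ccl5, a chemokine of cytotoxic cells, and Klrb1a (0.18) and Klrk1 (0.11) were both most like Klri1.

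T cells held fewer of these receptors, on average 0.863, 1.09, 0.592, 0.696, 0.547 and 0.990 members per thinned cell. Klrk1, which CD8 T cells also use, was the member held most often in T cells of 4 of the 6 rats, by 32.4, 18.8, 24.1, 18.6, 21.2 and 30.4% of thinned cells. Klrd1 was held by 18.8, 27.1, 12.1, 22.8, 9.37 and 23.9%. Klrh1 was held by at most 1.18% and Klri2 by at most 2.86%, so neither was common in T cells.

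Klrc1 stood at 31.0, 22.5, 27.6, 16.4, 41.3 and 64.2 CPM in T cells, and 6.48, 4.12, 4.85, 3.50, 8.41 and 9.74% of thinned T cells held it. It was the 1 of 8 members with CPM above the 4 other rats in both HFHF-old rats, and since 17.4% of all genes were so in T cells, this count is below the background. The genes of the response to dissociation summed to 2692, 1056, 3236, 2355, 4981 and 3883 CPM in T cells, again with both HFHF-old rats above the others. Klrb1a and Klri1 were lower in both old than in both young rats, at 175, 196, 77.9 and 86.1 CPM and at 82.3, 101, 64.5 and 58.9 CPM, as was Klrh1 at 4.48, 5.49, 0.130 and 1.16 CPM, which rest on 11, 11, 1 and 11 UMIs. These were 3 of 8 members, against 13.7% of all genes. The same 3 of 8 members were higher in both old rats in NK cells, and 0.929% of the 12480 genes tested in both classes lay without overlap in these 2 directions. edgeR called 0 of the 8 members in each of the 3 contrasts in T cells (0% of 12700 genes called), with 567, 550 and 1086 genes at an unadjusted p under 0.05, and DESeq2 called 25, 30 and 66 genes, 0 of them members. Without HFHF-old replicate 1 edgeR called 104 genes for HFHF-old against old and 127 against the 4 other rats, again with 0 members.

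The share with Klrd1 was higher in T cells with NK markers than in the others, and with Cd8 alone than with Cd4 alone. Each held in 6 of 6 rats, in part over very few cells. T cells with at least 3 of the 5 NK markers held Klrd1 in 43.5, 33.3, 68.8, 78.6, 60 and 58.9% and the other T cells in 16.7, 26.8, 10.9, 19.7, 7.87 and 19.7%. Those with NK markers numbered 23, 6, 16, 84, 15 and 151, so young replicate 2 rests on 6 cells. Of T cells with Cd8a or Cd8b and no Cd4 25.2, 29.6, 14.2, 33.1, 15.9 and 28.8% held Klrd1. Those with Cd4 and neither Cd8 gene held it in 12.5, 0, 0, 4.29, 1.96 and 4.92% and numbered 16, 5, 23, 70, 51 and 61. Cells with both Cd4 and Cd8 numbered 2, 3, 55, 116, 4 and 20 and held Klrd1 in 0, 33.3, 0, 4.31, 0 and 10.0%. Among T cells 14 of the 15 pairs usable in at least 3 libraries had a positive sign in each of them, with Klrd1 and Klre1 highest at a median log2 odds ratio of 3.49 over 3 libraries and Klrb1a with Klri1 at 2.74 over 5. T cells with NK markers were not left out of these pairs. In old replicate 2 Klre1 was held by 45.2% of them and by 6.45% of the other T cells. Their part in these signs was not tested. The share over other pairs of genes was not taken in T cells either, so nothing is read from the count of pairs. Pairs with Klrh1 or Klri2 were too rare in T cells to be judged.

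The remaining genes of the receptor system were read from lists chosen with earlier results of these data known. Their values are a description and no separate support for those of the members. edgeR called 0 genes of each list in each contrast. Other Klr and Ly49 genes tested in NK cells numbered 16 of 19. For old against young 15 of them had a positive and 1 a negative log2 fold change, with a median of 1.65 beside -0.02 over all genes and 0.90 over the 8 members. In marker-rich cells 14 were positive and 1 negative, with a median of 1.78 beside 0.02 over all genes. For HFHF-old against old 4 were positive and 12 negative, with a median of -0.46 beside 0.04 over all genes and -0.23 over the members.

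Klrc3, an NKG2 receptor, stood at 186, 462, 483, 442, 503 and 488 CPM in marker-rich cells, with young replicate 1 low as for Klre1. Ly49si1 stood at 58.3, 58.9, 229, 269, 311 and 330 CPM and Ly49s6 at 139, 34.2, 340.1, 221, 238 and 199.8 CPM, both lower in the 2 young rats than in the 4 aged rats. Macrophages also held Ly49si1, at 124 to 563 CPM.

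The 14 adaptor and signalling genes had medians of -0.06 for HFHF-old against old and 0.39 for old against young in NK cells, and 0.17 for the latter in marker-rich cells. Tyrobp, the adaptor of activating receptors, stood at 2677, 2806, 2796, 3597, 2039.5 and 2243 CPM and Hcst, the partner of Klrk1, at 628, 667, 568, 798, 432 and 559 CPM in marker-rich cells. In marker-rich cells the HFHF-old rats lay below the 4 others for both genes, where 11.9% of all genes did so. In all NK cells young replicate 2 was below both HFHF-old rats, so they no longer lay below all 4 others, with Tyrobp at 2459.7, 1539, 2634, 3133, 1787 and 2194 CPM and Hcst at 584, 335, 533, 689.7, 345 and 549 CPM. The 14 other NK receptors had medians of 0.05 and 0.39 in these contrasts, the 21 tested of 22 maturation and residency genes 0.21 and 0.58, and the 5 tested of 7 ligand genes 0.08 and 0.37. Clec2g, of the family of ligands of NKR-P1 receptors, stood at 612, 564, 639, 548, 484 and 445 CPM in marker-rich NK cells. The ligand Raet1e of Klrk1 reached at most 3.82 CPM in any class examined.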

How the data were processed

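Transcripts of single pancreatic cells were measured in 6 male rats, 2 in each of 3 groups. The deposited values are whole-number counts of UMIs per gene and barcode, which the authors made with Cell Ranger as filtered matrices. The file headers name version 5.0.0, and the submitters' processing notes name the build Rnor_6.0. Features carry Ensembl identifiers and symbols without coordinates. Blood, plasma and tissue measurements were not analysed here.

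Barcodes with under 200 genes, over 25% mitochondrial UMIs or over 6332 genes, the top 1% of all barcodes, were left out, 2823 of 78024. No doublet caller and no removal of free RNA was applied. Cells passing the macrophage, B or fibroblast marker count were left out in an alternative. NK and T cells were gated by marker genes, so Ncr1, Nkg7, Prf1, Gzma, Gzmm and the Cd3 genes are not results. Fibroblasts held at least 3 of Col1a1, Col1a2, Col3a1, Dcn and Lum and no Ptprc. The members and gene lists were chosen with earlier results of these data known.

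Counts were summed per rat and class and tested with edgeR 4.0.16 in R 4.3.3 (TMM, filterByExpr, glmQLFit and glmQLFTest with defaults, 1 fit of 6 rats without covariates, 3 residual degrees of freedom). Calls needed an adjusted p (Benjamini-Hochberg, all tested genes) under 0.05 together with a fold over 1.5. The size of the log2 fold change over the square root of F served as standard error. DESeq2 1.42.0 ran on the same sums. In counts simulated from the real means with 200 genes changed by a log2 fold of 2, the test for HFHF-old against old recovered 15.3% in NK cells over 13511 genes (0 false calls) and 37.5% in T cells over 12350 genes (4 false calls). p-values over rats are the only p-values given.

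Shares of cells were taken after random thinning to 2000 UMIs per cell. Co-detection is the log2 odds ratio with 0.5 added to each cell count, used where each gene was held by at least 20 cells of a library and read over at least 3 libraries. Likeness is Pearson's r over thinned cells on log values within a library, averaged over at least 4 libraries. Intervals are exact binomial intervals at 95%, a count of 0 is read as up to 3 counts, and both cover counting error only. Named genes were all members, and others drawn from called genes of the lists, the 3 highest genes of a list without calls and the 3 genes most like each member. Not every gene of these sets is named. Gzmb, S1pr5, Klrg1 and Raet1e, and the genes named beside holders of Klri2 or Klrh1, were chosen after their values had been seen. Python 3.11.15, NumPy 2.4.6, SciPy 1.17.1 and pandas 2.3.3 were used. Alternatives changed the normalization, tool, filters, gate, depth, replicate block and rats included.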

Additional observations from a re-analysis of the deposited data

Results flagged for a closer look

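For 3 members the old rats lay on opposite sides of the young rats in NK cells and in T cells, without overlap in either class, where 0.929% of 12480 genes tested in both classes did so in the same directions. The members were chosen on these cells, so nothing is read from this count. The difference between the classes was not tested. Klrb1a was 668.9 CPM higher in old NK cells and -103.5 CPM apart in T cells, as differences of group means, old minus young. In NK cells young replicate 2 was at 405 CPM and young replicate 1 at 1145 CPM, and in marker-rich cells the group means were 1625 CPM in old and 1271 CPM in young rats. Klrh1 was 61.2 CPM higher in NK cells and -4.34 CPM apart in T cells, where it was held by 2 and 3 cells of the young and by 1 and 7 cells of the old rats. Klri1 was 334.7 CPM higher in NK cells and -29.9 CPM apart in T cells. In marker-rich NK cells Klri1 no longer separated old from young rats, since young replicate 2 at 999.8 CPM lay above old replicate 1 at 805 CPM, while Klrb1a and Klrh1 still did. Young replicate 2 held islet hormone transcripts at 204739 CPM in its NK cells and 14437 CPM in its marker-rich cells, and at 163300 CPM in its T cells, against 5028 to 76546 CPM in the T cells of the other young and the old rats. Of its T cells 52.9% held at least 3 macrophage markers, and of its fibroblasts 14.4% held Klrb1a and 6.28% Klri1. Their part in these differences was not tested. Groups of 2 rats are too small for a check of single outlying rats.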

How the results depend on the processing

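The number of genes called moved with the tool, the filter, the gate and the rats included. For the comparisons of HFHF-old with old, of old with young and of HFHF-old with the 4 other rats, DESeq2 called 25, 34 and 77 genes in NK cells and 25, 30 and 66 in T cells, and edgeR without a filter on low counts called 9, 18 and 8 in NK cells and 1, 9 and 7 in T cells. The newer quasi-likelihood method called 1 gene for HFHF-old against the 4 other rats in NK cells. The legacy method listed as an alternative is the default of the version used. Old against young NK cells went from 1 call to 0 with the looser, stricter or exclusive gate, without cells passing another gate, in thinned cells, in marker-rich cells and in marker-rich cells without young replicate 1. Marker-rich cells without HFHF-old replicate 2 gave 4, 1 and 3 calls. T cells without cells passing another gate gave 2 for HFHF-old against old. Leaving out 1 rat gave 0 to 1 calls in each NK contrast, and in T cells 0 to 104 for HFHF-old against old, 0 to 0 for old against young and 0 to 127 for HFHF-old against the 4 other rats. The 104 and 127 calls came without HFHF-old replicate 1, and 5 calls in the last contrast without HFHF-old replicate 2. An arm with 1 rat is assumed to vary like the others.

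The numbers of the replicates are shared only as numbers by different rats, and deviations of equal numbers correlated at 0.331, -0.369 and -0.127 in NK and 0.254, -0.126 and -0.143 in T cells. With the replicate block 0 genes were called in all 6 comparisons, and Klrk1 turned to 0.076 for old against young and, against the 4 other rats, to 0.034 with Klrc1 at 0.049.

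Fold changes of members in NK cells kept their sign and side of the threshold in 438 alternatives, turned in 40 and passed the threshold in 2, both for Klrh1 without the filter on low counts. For HFHF-old against old the values that turned were Klrk1 at 0.071 and Klri1 at 0.026 without the filter on low counts, Klrk1 at 0.000896 in marker-rich cells without young replicate 1 and Klrh1 at -0.32 in marker-rich cells without HFHF-old replicate 2. With 1 rat left out Klrk1 ranged from -0.32 to 0.21, Klrb1a from -0.48 to 0.17, Klri1 from -0.32 to 0.13, Klri2 from -0.99 to 0.12 and Klrh1 from -0.62 to 1.48.

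For old against young, Klrk1 was at 0.0102 with RLE factors, 0.0102 with DESeq2 and 0.069 with the looser gate, and Klri1 at -0.12 in marker-rich cells without young replicate 1. Leaving out 1 rat moved Klrk1 from -0.59 to 0.97.

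Against the 4 other rats, Klrk1 was at 0.059 and Klrc1 at 0.088 without the filter, and at 0.00137 and 0.068 with the looser gate. Klre1 was at -0.022 without cells passing another gate. Klri1 and Klre1 were at -0.018 and -0.089 in marker-rich cells, -0.12 and -0.40 without young replicate 1, and -0.00503 and -0.26 without HFHF-old replicate 2, where Klrb1a was at -0.019. Leaving out 1 rat moved Klrd1 from -0.71 to 0.16, Klrk1 from -0.33 to 0.45, Klrb1a from -0.045 to 0.60, Klrc1 from -0.36 to 0.45 and Klre1 from -0.11 to 0.66. The cause was not tested.

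Differences in shares of cells, HFHF-old minus the 4 other rats, moved by less than 1 SD of those 4 rats in 64 of 64 alternatives, an SD that includes young replicate 2. Without cells passing another gate the difference for Klrd1 went from 1.64 to -9.23 percentage points, for Klrb1a from 12.0 to 1.92 and for Klri1 from 13.5 to 3.04. Fold changes of members in T cells are not given. The count of 0 for Klrh1 in young replicate 2 allows up to 0.458% of its marker-rich cells to hold a UMI, and few T cells held Klrh1 or Klri2, which limits their pairs.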
